A study of Mus musculus with 18 samples.

Results

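The step from day 7 to day 21 of differentiation, in which floating embryoid bodies become attached outgrowths, was compared between Pax7-/- and Pax7+/+ mouse embryonic stem cells. The quantity described is an interaction: the Pax7-/- change (day 21 minus day 7) minus the Pax7+/+ change, on the log2 scale, so that a value of 1 stands for a change 2-fold higher in Pax7-/- cells. It was read from 12 of the 18 arrays of the series, 3 each of Pax7-/- embryoid bodies at day 7, Pax7-/- outgrowths at day 21, Pax7+/+ embryoid bodies at day 7 and Pax7+/+ outgrowths at day 21, which the sample titles assign to their groups. All 22180 genes with a probe set of their own were tested, each through its brightest probe set. Cells of every group are F1 hybrids of C57Bl6N and 129Sv, and at both days they grew in KO-DMEM without LIF, with RA (retinoic acid) and ITS added; the undifferentiated cells of day 0, kept with LIF, entered only the estimates of the spread and of the array set described below. The labels call the arrays biological replicates but do not say whether they came from separate cultures or clones, so p-values measure the spread between these samples.

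Pax7 is a paired box transcription factor known from the dorsal neural tube, the neural crest and the muscle progenitors of the somite and adult muscle. Embryoid bodies are aggregates of stem cells that differentiate without LIF into a mixture of germ layer derivatives, usually wrapped in extraembryonic endoderm on a basement membrane, and outgrowths form when these bodies attach and their cells spread. During this time pluripotency genes are switched off, the cell cycle lengthens, and matrix-producing cells accumulate. Each array averages over all cells of such a mixture, so fewer cells of a type and less RNA per cell cannot be told apart.

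From day 7 to day 21 the change was higher in Pax7-/- than in Pax7+/+ cells for 9 of 16 genes of lipid synthesis, 7 of 27 of DNA replication, 4 of 22 of mitosis and 5 of 26 of naive pluripotency, among them Fasn, Mcm5, Plk1, Nanog and Sox2. It was lower for the laminin chains Lama1 and Lamb1, the matrix proteins Dcn, Ccn1 and Ccn2, the surface protein Pdpn and the transcription factors Epas1 and Atf3. It was also lower for Klf4 of the naive pluripotency list, of which 20 genes did not pass, among them Pou5f1, Esrrb and Zfp42. In all, 202 of 22180 genes (0.911%) passed at an adjusted p below 0.05 (limma, Benjamini-Hochberg), 160 with a higher change in Pax7-/- cells (0.721% of genes) and 42 with a lower change (0.189%). Of these, 83 higher and 29 lower genes reached 2-fold. The share of higher genes, 79.2% here, was 60.2% after quantile normalization (168 higher, 111 lower) and 54.6% when the arrays were scaled to the same median and SD (71 higher, 59 lower).

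In 154 of the 202 genes the change was smaller in size in Pax7-/- than in Pax7+/+ cells, as it was in 12527 of all 22180 genes. Among the 160 higher genes, the Pax7-/- change had a median of 0.25 and the Pax7+/+ change a median of -0.76 on the log2 scale, and 152 of them had a negative Pax7+/+ change. Among the 42 lower genes the medians were -0.26 in Pax7-/- cells and 0.84 in Pax7+/+ cells, and 40 had a positive Pax7+/+ change. Taken alone, the step passed the test in 34 of the 202 genes in Pax7-/- cells and in 164 in Pax7+/+ cells; over all genes it passed in 185 in Pax7-/- cells and in 1297 in Pax7+/+ cells. In only 8 of the 202 genes did both steps pass in opposite directions. By day, the median difference Pax7-/- minus Pax7+/+ of the higher genes was -0.30 at day 7 and 0.73 at day 21, and that of the lower genes was 0.35 at day 7 and -0.85 at day 21. These values describe genes chosen by the interaction they are part of and were not tested further.

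**Figure D1:**
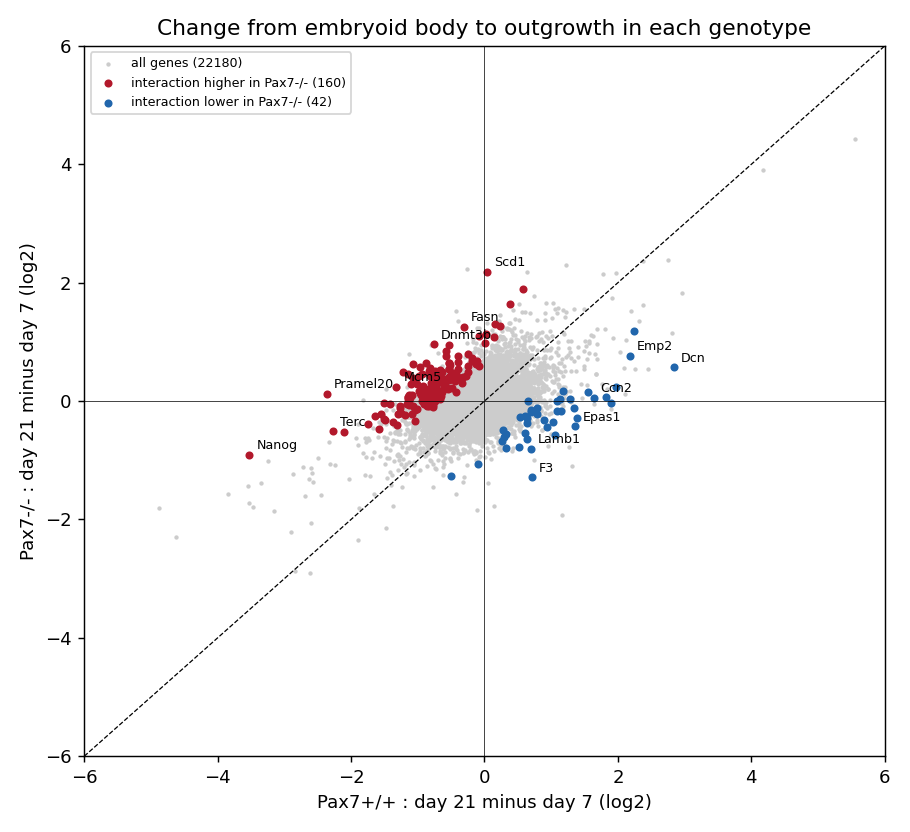
Each point is 1 of 22180 genes, with its change from day 7 to day 21 in Pax7+/+ cells on the x axis and in Pax7-/- cells on the y axis (log2, array set taken into account); red and blue mark the 160 genes with a higher and the 42 with a lower interaction that passed, and the dashed line marks equal change. Most red points lie left of 0 near or above the horizontal axis, most blue points right of 0 near or below it, while Scd1 and Fasn lie high up with little Pax7+/+ change.

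Arrays of 2 kinds could be told apart by how widely their values spread. Over all probe sets the SD was 1.79 to 1.85 on 8 wide arrays and 1.37 to 1.45 on 10 narrow arrays, and the labels do not say what the sets are. In Pax7-/- cells 1 of the 3 arrays was wide at day 7 and 2 at day 21. In Pax7+/+ cells 2 of the 3 were wide at day 7 and 1 at day 21. This imbalance lay in the replicate 3 arrays. The set thus moves with the interaction and was held in the fit as a covariate. Without that covariate 0 genes passed, with 399 at an unadjusted p below 0.05 against 2284 with it. Of the 46 named genes that passed, the 29 higher ones then lay between 0.90 and 3.47, with 27 larger in size than with the covariate, and the 17 lower ones between -1.07 and 0.32, all smaller in size and 1, Nid2, of the other sign. Pdpn was -0.72 without the covariate, Epas1 -0.61 and Emp2 -0.28, so sizes below hold for the fit with it. Values below are therefore given by set and compared within a set. Every called gene had the same sign on the 6 narrow and the 6 wide arrays of these days read alone; since the fit that called them is built from these arrays, this describes the 202 genes and is no support for them.

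**Figure D2:**
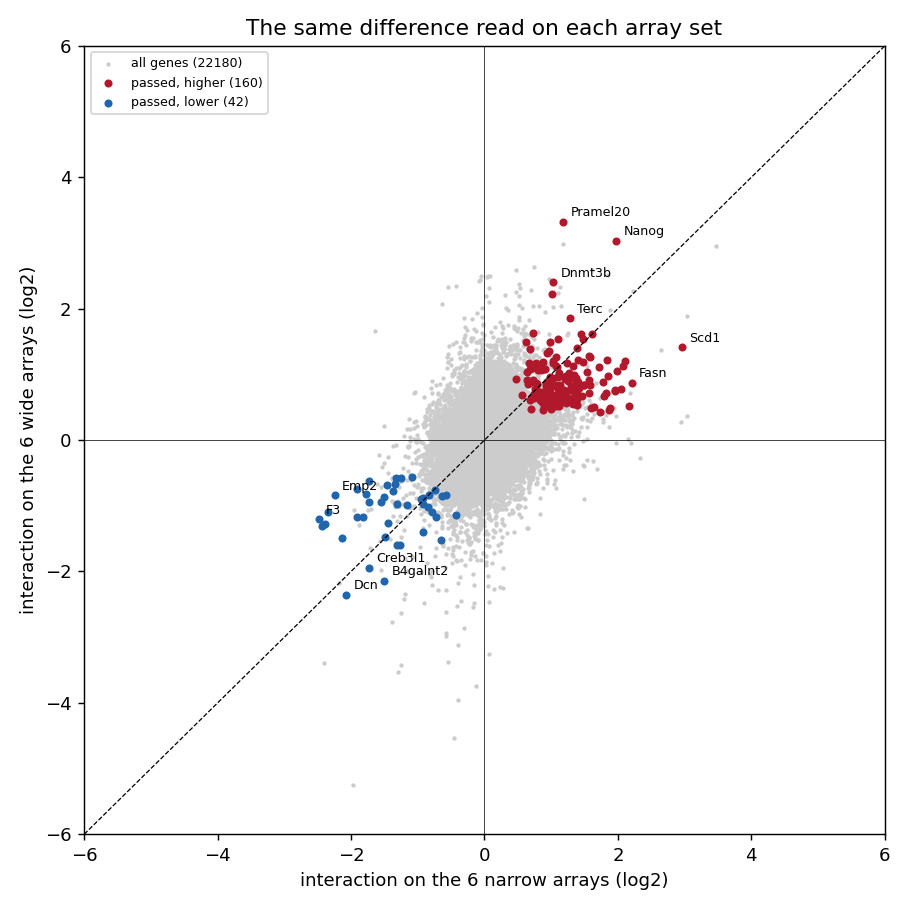
The interaction of each of 22180 genes read on the 6 narrow arrays alone (x axis) and on the 6 wide arrays alone (y axis), both in log2, with the 160 higher genes that passed in red, the 42 lower ones in blue and equality as the dashed line. All coloured points lie in the upper right or lower left quadrant; Nanog, Pramel20 and Dnmt3b were larger on wide arrays, Scd1 and Fasn on narrow arrays.

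Fatty acid and sterol synthesis was the list with the most genes past the threshold. Of its 16 measured genes 9 had a higher interaction, 0 a lower one and 7 did not pass; the median of the 16 was 1.04, against 0.01 over all genes. The 9 cover successive steps: Acly supplies acetyl-CoA in the cytosol, Fasn builds palmitate, Elovl6 lengthens it, Scd1 and Fads2 place double bonds, Hmgcs1, Fdps and Sqle act in the sterol branch, and Srebf2 is the transcription factor that switches sterol genes on when cholesterol is scarce. Fasn read 7.66 and 7.62 on narrow and 9.31 on wide arrays at day 7, and 9.32 on narrow and 10.21 and 10.33 on wide arrays at day 21 in Pax7-/- cells. In Pax7+/+ cells Fasn read 7.93 on narrow and 9.35 and 9.42 on wide arrays at day 7, and 7.38 and 7.43 on narrow and 9.46 on wide arrays at day 21. Every Pax7-/- outgrowth was thus above every embryoid body and every Pax7+/+ outgrowth of its array set, while the Pax7+/+ step was small and went in different directions in the 2 sets. The interaction of Fasn was 1.57 ± 0.24 (SE, 3 arrays a group; adjusted p = 0.00741, limma).

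Scd1, the desaturase that turns stearate into oleate, had the largest value of the list. In Pax7-/- cells it read 5.57 and 5.88 on narrow and 8.12 on wide arrays at day 7, and 8.75 on narrow and 9.92 and 9.44 on wide arrays at day 21. Pax7+/+ values were 7.05 on narrow and 9.31 and 9.04 on wide arrays at day 7, and 7.17 and 7.04 on narrow and 9.32 on wide arrays at day 21. Scd1 was lowest in the Pax7-/- embryoid bodies of either set, rose in Pax7-/- cells by 2.19 ± 0.28 (adjusted p = 0.00123) and hardly moved in Pax7+/+ cells, at 0.04 ± 0.28 (adjusted p = 0.968). The interaction was 2.15 ± 0.40 (adjusted p = 0.0207), and it did not pass without Pax7-/- day 7 replicate 1 (adjusted p = 0.0583) or without Pax7+/+ day 7 replicate 2 (adjusted p = 0.0602).

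Hmgcs1 makes the precursor of mevalonate, the start of the sterol branch. It read 5.61 and 5.22 on narrow and 7.33 on wide arrays at day 7, and 7.38 on narrow and 9.23 and 9.38 on wide arrays at day 21 in Pax7-/- cells. In Pax7+/+ cells the values were 5.67 on narrow and 7.94 and 7.97 on wide arrays at day 7, and 6.07 on both narrow and 9.01 on wide arrays at day 21. Outgrowths lay above embryoid bodies of their set in either genotype, by more in Pax7-/- cells. Its Pax7-/- step was 1.89 ± 0.19 (adjusted p = 0.00021), its Pax7+/+ step 0.57 ± 0.19 (adjusted p = 0.0985) and its interaction 1.32 ± 0.28 (adjusted p = 0.0357). The interactions of Elovl6, Fads2, Fdps, Sqle, Acly and Srebf2 lay between 0.93 and 1.55. The 7 members that did not pass, among them Srebf1 (0.69 ± 0.21, adjusted p = 0.196), Acaca, Lss and Cyp51, lay between 0.34 and 1.14. The count of 9 was 9 after quantile normalization, 3 after scaling the arrays to the same median and SD and 3 in the arrays of days 7 and 21 alone. It was 2 with the replicate number also in the fit. When 1 array was left out it lay between 1 (without Pax7+/+ day 7 replicate 2) and 10 (without Pax7+/+ day 21 replicate 2). Elovl6 passed in 3 of the 12 fits that left out 1 array.

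DNA replication was the list with the next highest count. Of 27 measured genes 7 had a higher interaction, 0 a lower one and 20 did not pass. The estimates of all 27 were above 0, with a median of 0.58. Over all 22180 genes 11356 estimates were above 0 and 10824 below. Members of a list are read on the same arrays, so their signs are not independent, here and in the lists below. The median Pax7-/- step of the list was 0.21 and the median Pax7+/+ step -0.45. The 7 are the helicase subunits Mcm2, Mcm4, Mcm5 and Mcm7, the sliding clamp Pcna, the ligase Lig1 and Rrm2, a subunit of the reductase that makes deoxynucleotides. Mcm5 read 8.46 and 9.09 on narrow and 9.89 on wide arrays at day 7, and 9.06 on narrow and 10.05 and 10.12 on wide arrays at day 21 in Pax7-/- cells. In Pax7+/+ cells Mcm5 read 9.18 on narrow and 9.98 and 9.96 on wide arrays at day 7, and 7.68 and 7.30 on narrow and 9.11 on wide arrays at day 21. The Pax7+/+ outgrowths were below all other arrays of their set, and the Pax7-/- outgrowths overlapped with the embryoid bodies on narrow arrays. Its interaction was 1.56 ± 0.26 (adjusted p = 0.01), from a Pax7-/- step of 0.24 ± 0.18 and a Pax7+/+ step of -1.32 ± 0.18.

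Rrm2 read 6.91 and 6.85 on narrow and 8.17 on wide arrays at day 7, and 7.50 on narrow and 8.49 and 8.59 on wide arrays at day 21 in Pax7-/- cells. In Pax7+/+ cells Rrm2 read 7.91 on narrow and 8.90 and 8.89 on wide arrays at day 7, and 6.36 and 6.53 on narrow and 8.13 on wide arrays at day 21. Here the genotypes changed places: Pax7-/- cells were below Pax7+/+ cells of their set at day 7 and above them at day 21, with differences of -0.83 (adjusted p = 0.0137) and 0.77 (adjusted p = 0.00448). The interaction of Rrm2 was 1.6 ± 0.20 (adjusted p = 0.00391), and 0.92 (adjusted p = 0.00841) with the mean of its probe sets. Those of Mcm7, Mcm4, Pcna, Lig1 and Mcm2 lay between 1.00 and 1.41, while Mcm6 (0.73, adjusted p = 0.0886) and Mcm3 (0.72, adjusted p = 0.199) did not pass. The origin factors Orc6, Cdc45 and Gins3 had the smallest values of the list, 0.05, 0.13 and 0.16. When 1 array was left out the count of 7 became 2 to 8, with 2 without Pax7-/- day 21 replicate 1 and also without Pax7+/+ day 7 replicate 1, and 8 without Pax7+/+ day 21 replicate 2. The count was 6 after quantile normalization, 4 after scaling to the same median and SD, and 2 with the replicate number also in the fit.

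E2F transcription factors and their partners are known to drive replication genes in S phase, and Srebf2 acts on sterol genes through a short element in their promoters. The windows of 3 genes that passed are shown because they hold these letters. They are RefSeq sequences of the assembly GRCm38.p6, from 250 bases before to 50 bases after an annotated start. They run 5′ to 3′ on the strand of the gene, with the matches in capitals. The E2F search used TTTNGCGC and the sterol search TCACNCCAC, each on both strands, with N any base.
Mcm5 (chr8:75109259-75109558, plus strand): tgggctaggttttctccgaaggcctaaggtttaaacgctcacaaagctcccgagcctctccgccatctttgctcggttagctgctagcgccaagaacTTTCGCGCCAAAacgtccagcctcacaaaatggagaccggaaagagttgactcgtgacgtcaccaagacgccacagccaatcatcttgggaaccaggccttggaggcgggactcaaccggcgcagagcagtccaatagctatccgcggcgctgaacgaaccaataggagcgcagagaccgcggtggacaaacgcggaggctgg
Mcm7 (chr5:138171834-138172133, minus strand): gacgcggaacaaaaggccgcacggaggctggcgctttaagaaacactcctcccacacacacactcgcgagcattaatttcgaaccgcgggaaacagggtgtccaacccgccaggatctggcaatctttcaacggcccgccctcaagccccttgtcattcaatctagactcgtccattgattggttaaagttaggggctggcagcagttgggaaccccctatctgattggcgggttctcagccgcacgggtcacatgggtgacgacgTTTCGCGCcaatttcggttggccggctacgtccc
Hmgcs1 (chr13:119690101-119690400, plus strand): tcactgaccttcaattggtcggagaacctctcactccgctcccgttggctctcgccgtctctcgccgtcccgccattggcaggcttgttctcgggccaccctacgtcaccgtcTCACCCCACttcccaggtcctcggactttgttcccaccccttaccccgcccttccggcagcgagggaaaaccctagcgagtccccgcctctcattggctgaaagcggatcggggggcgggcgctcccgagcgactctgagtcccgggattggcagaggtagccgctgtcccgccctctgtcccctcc
The capitals in Mcm5 are 2 overlapping matches, 1 on each strand, those in Mcm7 are 1 E2F match, and those in Hmgcs1 are 1 sterol match. Mcm7 has another annotated start, and its window (chr5:138171217-138171516, not shown) held 0 E2F matches. E2F letters stood in a window of 10 of the 24 replication genes with a sequence and in 3 of the 6 of them that passed, against 1.569% of 27025 genes. Sterol letters stood in 1 of the 12 lipid genes with a sequence, against 1.436% of all genes. A match describes the letters of the window and not the binding of a factor, which these arrays do not measure.

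Mitosis genes gave a similar picture to replication genes at smaller counts. Of 22 measured genes 4 had a higher interaction, 0 a lower one and 18 did not pass, with all 22 estimates above 0 and a median of 0.60. The 4 were the kinases Plk1 (1.39 ± 0.31, adjusted p = 0.0461), Aurkb (1.15 ± 0.24, adjusted p = 0.0337) and Aurka (0.92, adjusted p = 0.0242), which drive spindle assembly and chromosome alignment, and the checkpoint kinase Bub1b (0.89, adjusted p = 0.042). Plk1 read 7.16 and 7.55 on narrow and 9.14 on wide arrays at day 7, and 8.06 on narrow and 9.07 and 9.06 on wide arrays at day 21 in Pax7-/- cells. In Pax7+/+ cells Plk1 read 8.06 on narrow and 9.39 and 9.22 on wide arrays at day 7, and 6.70 and 6.50 on narrow and 8.71 on wide arrays at day 21. The Pax7+/+ outgrowths were the lowest arrays of each set. The interaction of Plk1 was 2.17 on narrow and 0.52 on wide arrays. The proliferation marker Mki67 (0.52, adjusted p = 0.32) and Top2a (0.71, adjusted p = 0.139) did not pass. Among 19 cell cycle brakes and p53 targets only Btg1, an antiproliferative gene, passed, and it was lower at -1.09 ± 0.19 (adjusted p = 0.0127); Cdkn1a stood at -0.11 (adjusted p = 0.903). The mitosis count was 0 without Pax7-/- day 7 replicate 1, Pax7-/- day 21 replicate 1, Pax7+/+ day 7 replicates 2 or 3, or Pax7+/+ day 21 replicate 3, each left out alone, and at most 4. Of the 12 fits that left out 1 array, Plk1 passed in 1, Aurkb in 2, Bub1b in 3 and Aurka in 6. With the replicate number also in the fit the mitosis count was 1.

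Gart, which catalyses several steps of purine synthesis, was among the 12 largest higher genes. Its chosen probe set read 6.57 and 6.69 on narrow and 9.06 on wide arrays at day 7, and 7.41 on narrow and 9.21 and 9.19 on wide arrays at day 21 in Pax7-/- cells. The Pax7+/+ arrays gave 7.37 on narrow and 9.41 and 9.24 on wide arrays at day 7, and 6.20 and 5.88 on narrow and 8.27 on wide arrays at day 21. The Pax7+/+ outgrowths were below every other array of their set, and the interaction was 1.71 ± 0.22 (adjusted p = 0.00391). With the mean of its probe sets in place of the brightest the value was 0.51 (adjusted p = 0.144), so the probe sets of Gart disagree.

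Of 26 genes of the nucleolus and ribosome assembly 3 had a higher interaction, 0 a lower one and 23 did not pass, with 24 estimates above 0 and a median of 0.53. They were Mybbp1a (1.10, adjusted p = 0.0452), Bop1, which acts in maturation of the large subunit (1.04, adjusted p = 0.0242), and the nucleolar phosphoprotein Nolc1. Nolc1 read 6.96 and 6.95 on narrow and 7.49 on wide arrays at day 7, and 7.26 on narrow and 7.46 and 7.67 on wide arrays at day 21 in Pax7-/- cells. In Pax7+/+ cells Nolc1 read 6.95 on narrow and 7.53 and 7.57 on wide arrays at day 7, and 5.95 and 6.13 on narrow and 6.94 on wide arrays at day 21. Only the Pax7+/+ outgrowths stood apart, and the interaction was 0.98 ± 0.18 (adjusted p = 0.0203). Of 19 ribosomal protein genes Rpl10a alone passed (0.86, adjusted p = 0.045), with 18 estimates above 0 and a median of 0.43. Among 12 histone and chromatin genes the linker histone H1f5 (1.34, adjusted p = 0.0204) and the heterochromatin protein Cbx5 (1.00, adjusted p = 0.023) passed. Terc, the RNA template of telomerase, had an interaction of 1.77 ± 0.35 (adjusted p = 0.029). When 1 array was left out, Rpl10a passed in 2, H1f5 in 9, Cbx5 in 7 and Terc in 5 of the 12 fits. With the replicate number also in the fit the counts of nucleolus, ribosomal protein and histone genes were 0. The ribosomal protein count was also 0 after quantile normalization and after scaling to the same median and SD. The nucleolus count was 0 without Pax7-/- day 7 replicates 1 or 2, Pax7-/- day 21 replicate 1, or Pax7+/+ day 7 replicates 2 or 3, each left out alone.

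Among 26 genes of naive pluripotency 5 had a higher interaction, 1 a lower one and 20 did not pass, with a median of 0.48. The median step was -0.67 in Pax7-/- cells and -1.10 in Pax7+/+ cells. Nanog, a core factor of the pluripotent state, had the largest higher interaction of all genes named by size. It read 6.67 and 7.72 on narrow and 9.04 on wide arrays at day 7, and 5.86 on narrow and 7.97 and 8.03 on wide arrays at day 21 in Pax7-/- cells. Its Pax7+/+ values were 8.76 on narrow and 9.74 and 9.84 on wide arrays at day 7, and 5.25 and 5.66 on narrow and 5.71 on wide arrays at day 21. Nanog thus started lower in Pax7-/- embryoid bodies and ended higher in Pax7-/- outgrowths, by over 2 log2 on wide arrays and narrowly on narrow arrays. Its step was -0.91 ± 0.33 in Pax7-/- cells (adjusted p = 0.256) and -3.52 ± 0.33 in Pax7+/+ cells (adjusted p = 2.38e-05), the interaction 2.62 ± 0.48 (adjusted p = 0.0192). Without Pax7+/+ day 7 replicate 1 the adjusted p of Nanog was 0.0514.

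Sox2 is shared by pluripotent and early neural cells. It read 6.90 and 7.96 on narrow and 8.95 on wide arrays at day 7, and 7.88 on narrow and 9.63 and 9.74 on wide arrays at day 21 in Pax7-/- cells. In Pax7+/+ cells Sox2 read 7.71 on narrow and 9.29 and 9.23 on wide arrays at day 7, and 6.34 and 6.75 on narrow and 8.38 on wide arrays at day 21. Outgrowths of the genotypes did not overlap within a set, Pax7-/- being the higher, and embryoid bodies overlapped on narrow arrays. The interaction of Sox2 was 1.69 ± 0.30 (adjusted p = 0.0156; 0.0553 without Pax7-/- day 7 replicate 2).

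Lin28a, an RNA-binding protein that blocks maturation of let-7 microRNAs, had a step that passed in either genotype and in opposite directions. It read 6.61 and 6.73 on narrow and 7.54 on wide arrays at day 7, and 7.64 on narrow and 8.16 and 8.49 on wide arrays at day 21 in Pax7-/- cells. In Pax7+/+ cells it read 7.01 on narrow and 7.94 and 7.88 on wide arrays at day 7, and 6.50 and 6.33 on narrow and 7.41 on wide arrays at day 21. Its step was 0.84 ± 0.13 in Pax7-/- cells (adjusted p = 0.00704) and -0.57 ± 0.13 in Pax7+/+ cells (adjusted p = 0.0178), and its interaction 1.42 ± 0.19 (adjusted p = 0.00391). Tet1, which oxidises methylcytosine, and Sall4, a zinc finger factor of pluripotent cells, had interactions of 1.36 ± 0.22 and 1.11 ± 0.16 (adjusted p = 0.01 and 0.00592), of which Sall4 was 0.58 (adjusted p = 0.187) with the mean of its probe sets. Pou5f1 (0.09, adjusted p = 0.969), Esrrb (0.43) and Zfp42 (0.46) did not pass.

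Klf4 was the 1 lower gene of that list. It is a pluripotency factor under LIF and Stat3 that is also expressed in differentiated epithelia. Klf4 read 6.56 and 6.19 on narrow and 8.40 on wide arrays at day 7, and 6.15 on narrow and 8.46 and 8.59 on wide arrays at day 21 in Pax7-/- cells. Pax7+/+ cells gave 6.44 on narrow and 8.23 and 8.31 on wide arrays at day 7, and 7.58 and 7.95 on narrow and 9.35 on wide arrays at day 21. The Pax7+/+ outgrowths alone were raised, by 1.28 ± 0.16 (adjusted p = 0.000261), and the interaction was -1.24 ± 0.24 (adjusted p = 0.0242). This call was lost in 5 of the 12 fits that left out 1 array. It was also lost after scaling to the same median and SD, and with the replicate number also in the fit.

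Dnmt3b, the methyltransferase that marks the primed epiblast, was the 1 of 16 primed epiblast genes that passed. It read 6.01 and 6.41 on narrow and 8.02 on wide arrays at day 7, and 7.02 on narrow and 9.16 and 8.83 on wide arrays at day 21 in Pax7-/- cells. In Pax7+/+ cells Dnmt3b read 6.28 on narrow and 8.31 and 8.47 on wide arrays at day 7, and 6.04 and 6.08 on narrow and 6.96 on wide arrays at day 21. Its interaction was 1.72 ± 0.29 (adjusted p = 0.0118), 1.03 on narrow arrays and 2.40 on wide arrays. The list had 15 estimates above 0 and a median of 0.83, with Zic2 just outside the threshold (1.07 ± 0.24, adjusted p = 0.0505). Of 24 neural progenitor genes Sox2 alone passed, with 22 estimates above 0 and a median of 0.54; Sox1 (1.54, adjusted p = 0.0708), Prtg (2.48, adjusted p = 0.132) and Pax6 (0.39, adjusted p = 0.705) did not. None of 24 neuronal genes passed, Stmn2 being the nearest (1.07 ± 0.24, adjusted p = 0.0525). With 0.911% of all genes past the threshold, a count of 0 says little about that list.

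**Figure D3:**
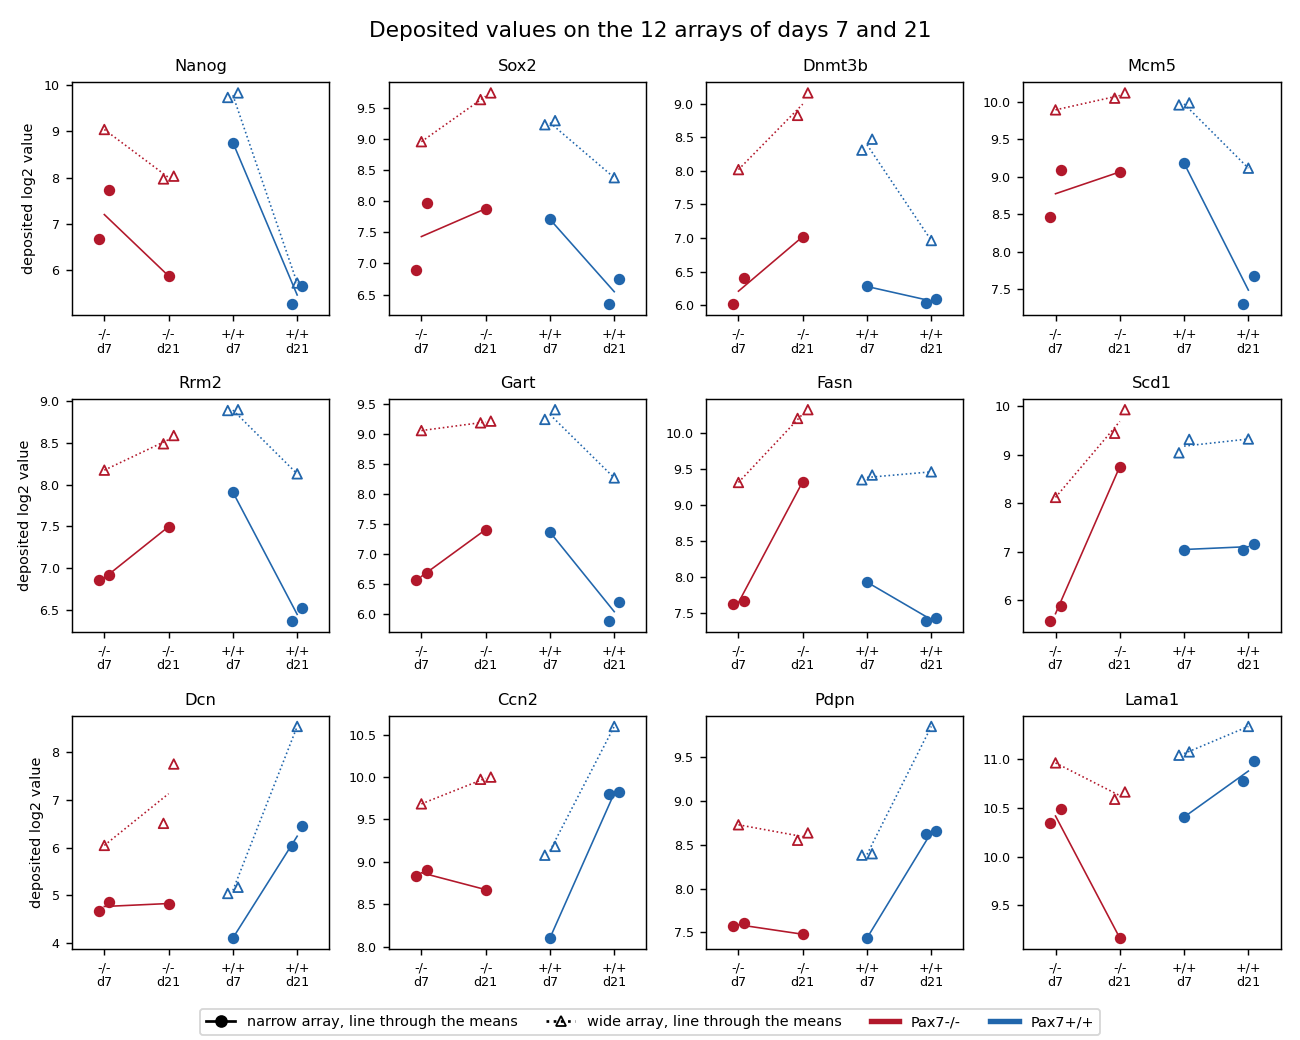
Deposited log2 values of 12 genes on each of the 12 arrays, with Pax7-/- columns (red) left of Pax7+/+ columns (blue) and day 7 before day 21; filled circles are narrow arrays, open triangles wide arrays, and lines join the means of a set. In the upper 2 rows the red lines of Nanog fall less than the blue ones. Those of Sox2, Dnmt3b, Mcm5, Rrm2 and Gart rise where the blue ones fall. For Fasn and Scd1 the red lines rise and the blue ones rise less or fall. In the lowest row (Dcn, Ccn2, Pdpn, Lama1) the blue lines rise and the red ones rise less, stay level or fall.

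Genes of parietal endoderm and basement membrane were the list with the most lower interactions. Of 21 measured genes 4 had a lower interaction, 0 a higher one and 17 did not pass, with 18 estimates below 0 and a median of -0.60. Pdpn, podoplanin, a mucin-like surface glycoprotein of parietal endoderm and other cells, had the smallest p of all 22180 genes. It read 7.57 and 7.60 on narrow and 8.73 on wide arrays at day 7, and 7.48 on narrow and 8.64 and 8.55 on wide arrays at day 21 in Pax7-/- cells. In Pax7+/+ cells Pdpn read 7.43 on narrow and 8.40 and 8.38 on wide arrays at day 7, and 8.66 and 8.62 on narrow and 9.85 on wide arrays at day 21. The Pax7+/+ outgrowths stood above all other arrays of their set by over 1 log2, and the other 3 groups lay close together. Its step was -0.12 ± 0.09 in Pax7-/- cells (adjusted p = 0.693) and 1.35 ± 0.09 in Pax7+/+ cells (adjusted p = 1.42e-06), the interaction -1.46 ± 0.13 (adjusted p = 0.000164).

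Lama1 and Lamb1 encode chains of laminin-111, the main laminin of the early basement membrane, and Nid2 the linker protein nidogen. Lama1 read 10.49 and 10.34 on narrow and 10.96 on wide arrays at day 7, and 9.16 on narrow and 10.59 and 10.66 on wide arrays at day 21 in Pax7-/- cells. In Pax7+/+ cells Lama1 read 10.41 on narrow and 11.08 and 11.04 on wide arrays at day 7, and 10.99 and 10.77 on narrow and 11.34 on wide arrays at day 21. Pax7-/- outgrowths were the lowest and Pax7+/+ outgrowths the highest of each set. The interaction was -1.30 ± 0.29 for Lama1 (adjusted p = 0.0479), -1.50 ± 0.32 for Lamb1 (adjusted p = 0.04) and -0.77 ± 0.17 for Nid2 (adjusted p = 0.0479), and that of the third chain, Lamc1, was -1.10 with an adjusted p of 0.0656. The collagen IV chains Col4a1 (-0.81, adjusted p = 0.537) and Col4a2 (-1.35, adjusted p = 0.15) did not pass. The count of 4 was 1, Pdpn, in 10 of the 12 fits that left out 1 array, all but those without Pax7-/- day 7 replicate 2 or Pax7+/+ day 21 replicate 2, and 7 at most; without the array set covariate the median of the list was 0.13 and the sign of Nid2 turned to 0.32.

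Ccn1 and Ccn2, secreted matricellular proteins known as targets of the Yap and Taz coactivators, were the 2 lower genes among 17 of smooth muscle and cytoskeletal tension, with 0 higher and 15 not passing. Ccn2 read 8.90 and 8.84 on narrow and 9.68 on wide arrays at day 7, and 8.67 on narrow and 9.97 and 10 on wide arrays at day 21 in Pax7-/- cells. In Pax7+/+ cells Ccn2 read 8.10 on narrow and 9.08 and 9.18 on wide arrays at day 7, and 9.82 and 9.80 on narrow and 10.60 on wide arrays at day 21. Pax7-/- cells were above Pax7+/+ cells of their set at day 7 and below them at day 21, and Pax7-/- cells hardly changed. The interaction was -1.58 ± 0.17 for Ccn2 (adjusted p = 0.0011) and -1.93 ± 0.29 for Ccn1 (adjusted p = 0.00592). With the mean of its probe sets Ccn2 stood at -0.87 (adjusted p = 0.0095). Contractile genes of the list, Acta2 (-0.58, adjusted p = 0.63), Tagln (-0.21) and Cnn1 (-0.27), did not pass.

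Decorin, Dcn, a small proteoglycan of fibroblasts, had the largest lower interaction and was the 1 of 25 fibroblast genes that passed. It read 4.67 and 4.86 on narrow and 6.05 on wide arrays at day 7, and 4.83 on narrow and 7.76 and 6.51 on wide arrays at day 21 in Pax7-/- cells. In Pax7+/+ cells Dcn read 4.11 on narrow and 5.17 and 5.04 on wide arrays at day 7, and 6.04 and 6.45 on narrow and 8.55 on wide arrays at day 21. The wide Pax7-/- outgrowths differed by over 1 log2 from each other, and both were below the Pax7+/+ outgrowth of that set. The interaction was -2.27 ± 0.44 (adjusted p = 0.025), and 4 of the 12 fits that left out 1 array kept it past the threshold. With the replicate number also in the fit the count of fibroblast genes was 0. The fibrillar collagens Col1a1 (-1.64, adjusted p = 0.161), Col1a2 (-1.98, adjusted p = 0.167) and Col3a1 (-1.09, adjusted p = 0.547) did not pass; the list had 22 estimates below 0 and a median of -0.42.

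Regulators among the lower genes included Epas1, the hypoxia-inducible factor HIF-2 alpha, which was the 1 of 17 hypoxia and glycolysis genes that passed. Epas1 read 7.79 and 7.69 on narrow and 9.61 on wide arrays at day 7, and 6.97 on narrow and 9.30 and 9.31 on wide arrays at day 21 in Pax7-/- cells. The values in Pax7+/+ cells were 7.57 on narrow and 9.55 and 9.36 on wide arrays at day 7, and 9.14 and 9.22 on narrow and 10.42 on wide arrays at day 21. Embryoid bodies lay close together, and outgrowths were apart by over 1 log2 in either set, Pax7-/- being the lower. The interaction of Epas1 was -1.79 ± 0.24 (adjusted p = 0.00391), while Vegfa (-0.70, adjusted p = 0.136) and Hif1a (0.11, adjusted p = 0.919) did not pass. Creb3l1, a membrane-bound factor cleaved to activate collagen secretion genes, stood at -1.73 ± 0.27 (adjusted p = 0.00921) and was the 1 of 22 amino acid and ER stress genes that passed.

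Immediate early genes respond within minutes to serum, growth factors and handling of cells. Of 19 measured genes 2 had a lower interaction, 0 a higher one and 17 did not pass, with 18 estimates below 0 and a median of -0.60; the median step was 0.55 in Pax7-/- cells and 1.20 in Pax7+/+ cells. Atf3 read 7.47 and 7.32 on narrow and 9.05 on wide arrays at day 7, and 7.37 on narrow and 9.23 and 9.27 on wide arrays at day 21 in Pax7-/- cells. In Pax7+/+ cells Atf3 read 6.74 on narrow and 8.37 and 8.18 on wide arrays at day 7, and 8.08 and 8.33 on narrow and 9.96 on wide arrays at day 21. Pax7-/- cells were above Pax7+/+ cells of their set at day 7 and below them at day 21. The interaction of Atf3 was -1.40 ± 0.20 (adjusted p = 0.00543), and that of the zinc finger factor Egr1, which rose in either genotype, was -1.06 ± 0.19 (adjusted p = 0.0152). Egr1 did not pass without Pax7-/- day 7 replicate 2 (adjusted p = 0.0643), Pax7-/- day 21 replicate 1 (0.0532) or Pax7+/+ day 7 replicate 1 (0.0506). Fos (-1.09, adjusted p = 0.34) and Jun (-0.95, adjusted p = 0.184) did not pass. Without the array set covariate the median of the list was -0.07.

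**Figure D4:**
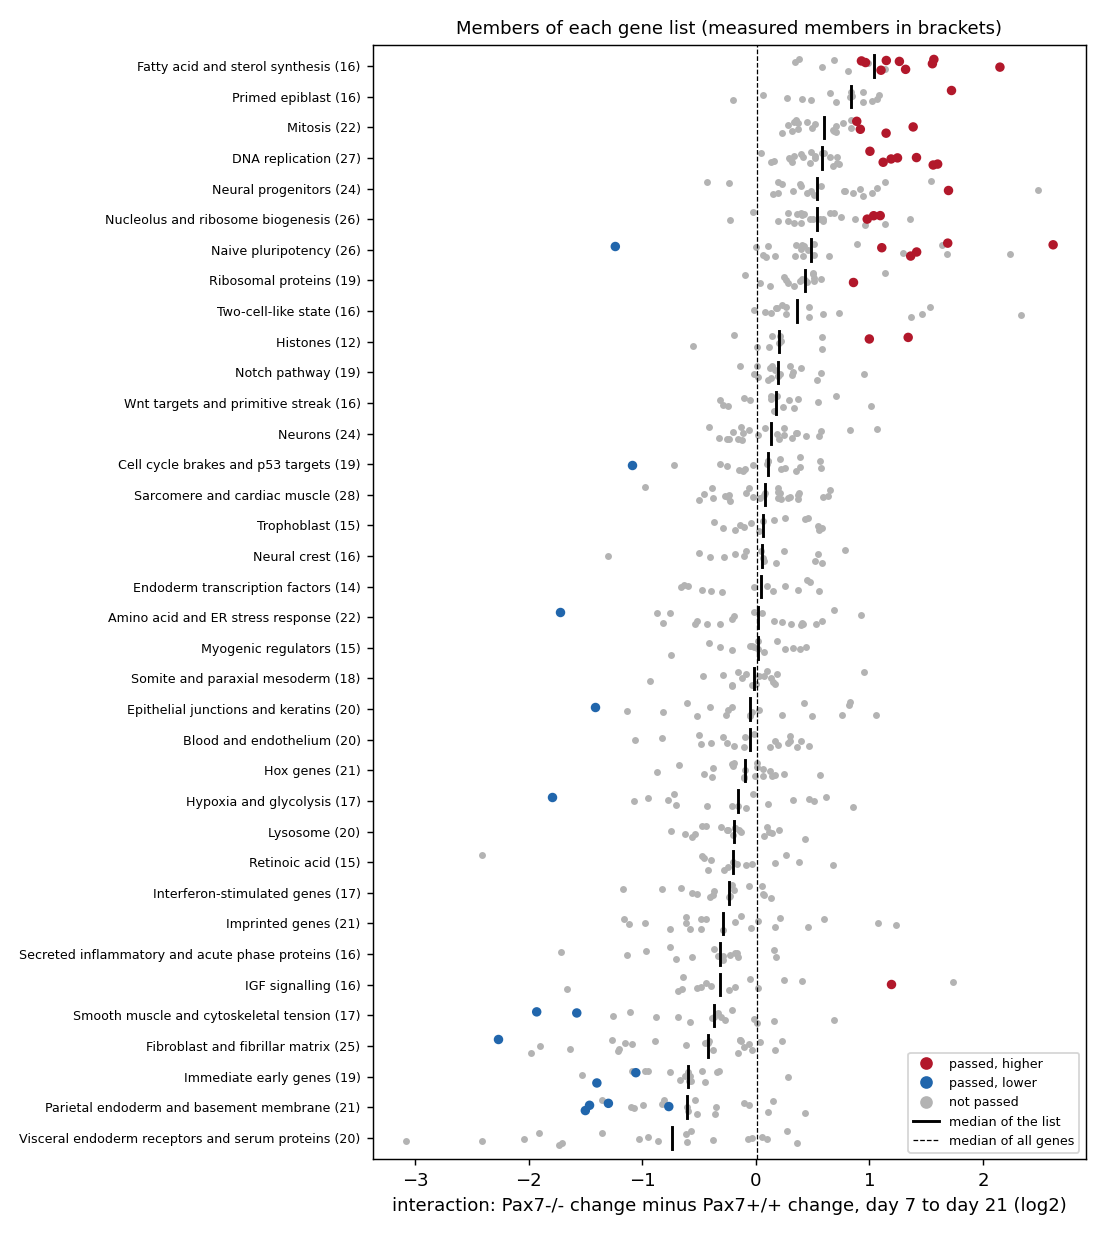
Interaction (log2, Pax7-/- change minus Pax7+/+ change) of every measured member of the gene lists, 1 row for each list, with members that passed in colour and the list median as a bar. Lipid synthesis, replication, mitosis and nucleolar genes lie mostly right of 0, and basement membrane, immediate early and fibroblast genes mostly left of it.

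The other genes with the largest values belong to no list, apart from Emp2 of the epithelial junction and keratin list. Pramel20, a member of a leucine-rich family of the germ line and early embryo, had the second largest higher interaction, 2.49 ± 0.54 (adjusted p = 0.0452). It read 5.08 and 4.98 on narrow and 4.73 on wide arrays at day 7, and 4.99 on narrow and 5.04 and 5.10 on wide arrays at day 21 in Pax7-/- cells. In Pax7+/+ cells Pramel20 read 6.45 on narrow and 7.94 and 8.28 on wide arrays at day 7, and 5.08 and 5.39 on narrow and 5.12 on wide arrays at day 21. Only the Pax7+/+ embryoid bodies were raised, so the value reflects a level at day 7 that Pax7-/- cells did not have, and Tmem92 had the same shape, with an interaction of 1.6 ± 0.34 (adjusted p = 0.0374). Pramel20 passed in 1 and Tmem92 in 3 of the 12 fits that left out 1 array, as did B4galnt2 in 1 and Emp2 in 2 of the lower genes that follow. Lower genes of this kind were F3, tissue factor, the trigger of coagulation (-2.0 ± 0.34, adjusted p = 0.0118), the prostaglandin transporter Slco2a1 (-1.76 ± 0.23, adjusted p = 0.00391), the BMP-binding membrane protein Crim1 (-1.67 ± 0.25, adjusted p = 0.00592), the glycosyltransferase B4galnt2 (-1.63 ± 0.35, adjusted p = 0.042) and the tetraspan protein Emp2 (-1.42 ± 0.32, adjusted p = 0.0472). F3 fell by 1.29 ± 0.23 in Pax7-/- cells (adjusted p = 0.0143), whereas Emp2 rose in Pax7+/+ cells by 2.18 ± 0.22 (adjusted p = 3.4e-05) and stood at 0.77 ± 0.22 in Pax7-/- cells (adjusted p = 0.13). Emp2 was the 1 of 20 epithelial genes that passed, in a list with 8 estimates above 0 and 12 below. With the replicate number also in the fit that count was 0. Igfbp2, an IGF-binding protein, was the 1 of 16 IGF signalling genes that passed (1.19 ± 0.23, adjusted p = 0.025), in 5 of the 12 fits without 1 array.

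Visceral endoderm receptors and serum proteins, products of the outer layer of embryoid bodies, gave large values that did not pass. Of 20 measured genes 0 passed, 16 estimates were below 0, and the median was -0.74, with -0.14 on narrow and -1.82 on wide arrays. Afp, alpha-fetoprotein, read 7.77 and 7.74 on narrow and 9.63 on wide arrays at day 7, and 6.49 on narrow and 7.45 and 6.19 on wide arrays at day 21 in Pax7-/- cells. In Pax7+/+ cells Afp read 6.61 on narrow and 7.19 and 8.24 on wide arrays at day 7, and 7.43 and 7.18 on narrow and 10.15 on wide arrays at day 21. Replicates of 1 group and set differed by over 1 log2, and the interaction was -3.08 ± 0.91 (adjusted p = 0.164). Rbp4, the retinol carrier, stood at -2.41 ± 0.74 (adjusted p = 0.185). None of 14 endoderm transcription factors passed either, with 7 estimates on each side of 0. With 0.911% of all genes past the threshold, these counts of 0 say little about either list.

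Muscle, somite and neural crest genes were listed because Pax7 is known from these lineages. None of 15 myogenic regulators, 28 sarcomere and cardiac genes, 18 somite genes and 16 neural crest genes passed, a count of 0 that with 0.911% of all genes past the threshold says little about these lists; Myod1 stood at 0.02 (adjusted p = 0.992), Myf5 at -0.02 (adjusted p = 0.992), Pax3 at 0.33 (adjusted p = 0.886) and the neural crest factor Snai2 at -1.30 (adjusted p = 0.0656). Mef2a was the nearest of the myogenic list at -0.75 ± 0.17 (adjusted p = 0.0525), a sign that turned to 0.82 without the array set covariate. Pax7 itself read 6.32 and 5.86 on narrow and 4.99 on wide arrays at day 7, and 6.12 on narrow and 5.36 and 5.53 on wide arrays at day 21 in Pax7-/- cells. In Pax7+/+ cells it read 6.35 on narrow and 4.68 and 5.09 on wide arrays at day 7, and 6.19 and 5.61 on narrow and 5.53 on wide arrays at day 21. The genotypes overlapped at either day, the interaction was 0.26 ± 0.34 (adjusted p = 0.899), with 0.48 on narrow and -0.18 on wide arrays, and since the files do not say whether the probes lie in the part of the gene that was disrupted, the signal checks no label.

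Over the 36 lists, which hold 668 measured genes, 47 genes passed, beside 202 of all 22180 genes (0.911%). Brighter genes held most calls: 200 of the 202 also passed when only the 11090 genes above the median level were tested. Lists differ in level, with a Pax7-/- day 7 median of 7.28 for DNA replication, 8.43 for lysosome and 5.13 for Hox genes. The share of 0.911% is therefore not a background matched to the level of a list. The lists were chosen with earlier results of these data known. In 18 lists no gene passed, among them Hox genes, the Notch pathway, Wnt targets, imprinted genes, trophoblast, blood and endothelium, interferon-stimulated genes, lysosome and retinoic acid genes. With 12 to 28 measured genes in a list, a count of 0 says little about its members. At the threshold, the genes just inside were Mfge8, Lig1 and Samm50 (adjusted p = 0.0496) and those just outside Zic2, Tmem47 and Stmn2 (adjusted p = 0.0505 to 0.0525). Of 46 named genes that passed, 18 also passed in each of the 12 fits that left out 1 array of these days: Dnmt3b, Gart, Rrm2, Fasn, Mcm5, Lin28a, Sall4 and Tet1 among the higher, and F3, Ccn1, Ccn2, Epas1, Slco2a1, Creb3l1, Crim1, Pdpn, Btg1 and Atf3 among the lower genes. Of these, Gart (adjusted p = 0.144, limma) and Sall4 (adjusted p = 0.187, limma) did not pass with the mean of their probe sets.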

How the data were processed

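RNA was measured on 18 Affymetrix arrays. The deposited table holds, for each probe set, a log2 intensity; RMA and Partek are named in the submitters' processing notes, without versions, and whether all arrays were summarised together is not given in the sources used here. Of 41345 probe sets 23521 carried 1 gene symbol in the platform annotation, 1814 several and 16010 none; the probe set with the highest mean was kept, which gave 22180 genes, 1082 of them with several probe sets, and 21994 matched the RefSeq gene table by identifier.

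Groups came from the sample titles. An array was called wide where its SD over all probe sets exceeded 1.6. Means of 6 genotype by day groups and the array set were fitted to all 18 arrays by linear models and moderated by eBayes, with no trend and 11 residual degrees of freedom (limma 3.58.1, R 4.3.3), with Benjamini-Hochberg adjustment over all genes and a threshold of 0.05. The number of arrays limits the precision. For scale, an exact permutation test of 3 against 3 arrays has a smallest p of 0.1. That is a simpler comparison than the interaction, was not run and sets no limit to the p-values given here. No pairing by replicate number was used. Residuals of arrays of 1 number, taken after group and array set were fitted, correlated between -0.07 and 0.23. At days 7 and 21 every replicate 1 array was narrow and every replicate 2 array wide, and only replicate 3 arrays differed in set. Fitting the set thus takes up much of any replicate effect, so these correlations cannot decide whether pairing matters. With the replicate number also in the fit 73 genes passed. Named genes were the 12 largest interactions in each direction among genes past the threshold, at 2-fold or more and of 1 sign on both sets, up to 4 members of each of 36 lists that passed, by smallest p (2 where none did), and Pax7; predicted genes and small RNAs were passed over. Other listed genes are given by their role in a list. The comparison, the array set and the lists were chosen with earlier results of these data known. The code was tested on simulated data with known changes. Python 3.11.15 and matplotlib 3.10.9 drew the plots.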

Additional observations from a re-analysis of the deposited data

Results flagged for a closer look

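The change from day 7 to day 21 differed between Pax7-/- and Pax7+/+ cells in 202 genes, by the test of the difference itself (limma, adjusted p below 0.05). The 24 largest of these that the naming rule takes are given here as interactions in log2, the Pax7-/- change minus the Pax7+/+ change, each from 3 arrays a group. Those above 0 were Nanog (2.62), Pramel20 (2.49), Scd1 (2.15), Terc (1.77), Dnmt3b (1.72), Gart (1.71), Sox2 (1.69), Rrm2 (1.6), Tmem92 (1.6), Fasn (1.57), Mcm5 (1.56) and Elovl6 (1.55). Those below 0 were Dcn (-2.27), F3 (-2.0), Ccn1 (-1.93), Epas1 (-1.79), Slco2a1 (-1.76), Creb3l1 (-1.73), Crim1 (-1.67), B4galnt2 (-1.63), Ccn2 (-1.58), Lamb1 (-1.50), Pdpn (-1.46) and Emp2 (-1.42).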

How the results depend on the processing

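The count of 202 genes was 0 without the array set covariate (399 at an unadjusted p below 0.05), 71 with the set as a random block, 130 with arrays scaled to the same median and SD, 337 on the wide arrays alone and 34 at an adjusted p below 0.01. It ranged from 64 (without Pax7-/- day 7 replicate 1) to 307 (without Pax7+/+ day 21 replicate 2) when 1 array was left out, and 10 of the 12 such fits moved it by over 1.5 times. The samples share only a replicate number: with the replicate block beside the array set 73 genes passed (53 higher, 20 lower). The other settings gave 151 to 279 genes; in the arrays of days 7 and 21 alone 103 were higher and 66 lower. All 24 largest interactions kept their sign in every setting, which for narrow or wide arrays alone the naming rule fixes. None passed without the covariate, 17 passed with the replicate block and 19 after scaling to the same median and SD. With the mean of a gene's probe sets 23 passed, all but Gart (0.51, adjusted p = 0.144, limma). Without the covariate the sign turned for Pax7 (-0.4536), Nid2 (0.3225), Psap (0.1311), Laptm4a (0.2194), Mef2a (0.817) and Mef2d (0.6149), for Pax7 also on wide arrays (-0.1813), and for Aldh1a3 on narrow arrays (0.08874), where of these genes only Nid2 had passed. List medians that turned sign without it include lysosome (0.74, against -0.20), hypoxia (0.55, against -0.16) and imprinted genes (0.46, against -0.29). Basement membrane also turned (0.13, against -0.60). Immediate early genes kept their sign at -0.07 (against -0.60), and fibroblast genes at -0.34 (against -0.42). What the array sets are cannot be told from the labels. With 3 arrays a group, 1 or 2 of each set, an interaction within a set rests on 6 arrays.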

Other observations

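Outside the lists, and picked out after their values were seen, some genes of known function passed. Fgfr1, a receptor for fibroblast growth factors, stood at 1.17 ± 0.18 (adjusted p = 0.00921), and Hells, a chromatin remodeller that works with DNA methyltransferases, at 1.07 ± 0.19 (adjusted p = 0.0133). Among the lower genes, Plaur, the urokinase receptor, stood at -1.32 ± 0.21 (adjusted p = 0.00921) and Tinagl1, a secreted matrix protein, at -1.20 ± 0.21 (adjusted p = 0.0169).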
